A study of Homo sapiens with 8 samples.

Results

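The proteasome genes were taken as every row of the deposited count table whose symbol consists of PSM, a letter from A to G and a number, which gave 48 genes of 60606 rows. They encode the rings of the 20S core, the ATPases, other base subunits and lid of the 19S regulator, the 20S activators, the regulator PI31 and the chaperones that build the particle. RNA came from HEK293, an established line of human embryonic kidney cells, bought from a cell bank. Cells of the tDR group were transfected with a mimic of the 3' tRNA-derived RNA of tRNA-Asp-GTC (4 libraries), and control cells with scrambled mimics (4 libraries). Both groups received 50 nM of mimic with the same lipid reagent and were collected 48 hours after transfection, so all libraries are from transfected cells. Untransfected cells were not analysed here. The comparison asked how proteasome mRNA differed between the groups. The labels do not say whether replicates were separate cultures. Each p-value therefore reflects the scatter of the 8 libraries, part of which may be technical. Total counts per library ran from 5848305 to 9237986 in the tDR group and from 6536554 to 10557740 in the control group.

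The 26S proteasome is the protease that degrades ubiquitin-tagged proteins. Its 20S core is a barrel of stacked rings, in which outer alpha rings gate the entrance and inner beta rings carry the protease sites. The 19S regulator caps the barrel. Its lid and its non-ATPase base subunits bind and deubiquitinate the substrate, and its ring of ATPases unfolds the protein and feeds it into the core. Other activators, PA28 and PA200, can replace the 19S cap and open the core without ubiquitin. In mammals many subunit genes are raised together by the transcription factor NRF1 (gene NFE2L1) when proteasome activity falls short.

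Many proteasome mRNAs fell in tDR-transfected cells, most of them for subunits of the core and of its 19S cap. Of the 48 genes 41 had enough counts to be tested, of which 21 fell, none rose and 20 did not pass (quasi-likelihood test of edgeR, with p adjusted by Benjamini-Hochberg over all 17184 genes tested, at a threshold of 0.05). The 21 are 51.2% of the members tested, where 11.4% of all genes tested were lower and 12.8% were higher. Among the 37 members with a mean of at least 20 CPM (counts relative to library sizes scaled by TMM) 56.8% were lower, against 22.1% of the 8129 protein-coding genes at or above that level, of which 7.18% were higher. The falls were small, from 9.21% in PSMD2 to 25.6% in PSMA4. The median log2 fold change, tDR over control, was -0.18 over the 41 members and 0.02 over all genes tested. Over the protein-coding genes of at least 20 CPM it was -0.07. No member was called higher, none had an unadjusted p under 0.05 with a positive fold change, and DESeq2 also called none higher. In bulk RNA fewer cells that express a gene and less RNA per cell cannot be told apart.

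By role, the members that fell were 19 of the 28 tested genes of the alpha ring, the constitutive beta ring, the ATPases, the other base subunits and the lid, the alpha ring variant PSMA8 and the base chaperone PSMD10. Of the 9 tested genes for activators, PI31 and the chaperones of the 20S core 0 were called by edgeR, 1 had an unadjusted p under 0.05 and DESeq2 called 0. Median log2 fold changes were 0.02 for the activators, -0.11 for PI31 and -0.15 for the chaperones of the 20S core. They were -0.16 for the lid and -0.14 for the other base subunits. Whether the subcomplexes differ from each other was not tested. In 15 of the 41 members (36.6%) every tDR library lay below every control library, as it did in 10.8% of all genes tested and 20.5% of the protein-coding genes of at least 20 CPM. None lay wholly above, against 11.8% of all genes. Control replicate 1 was the lowest control library in 23 of the 41 members. Without it 24 members were lower, as were 2023 of the 17527 genes then tested.

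**Figure D1:**
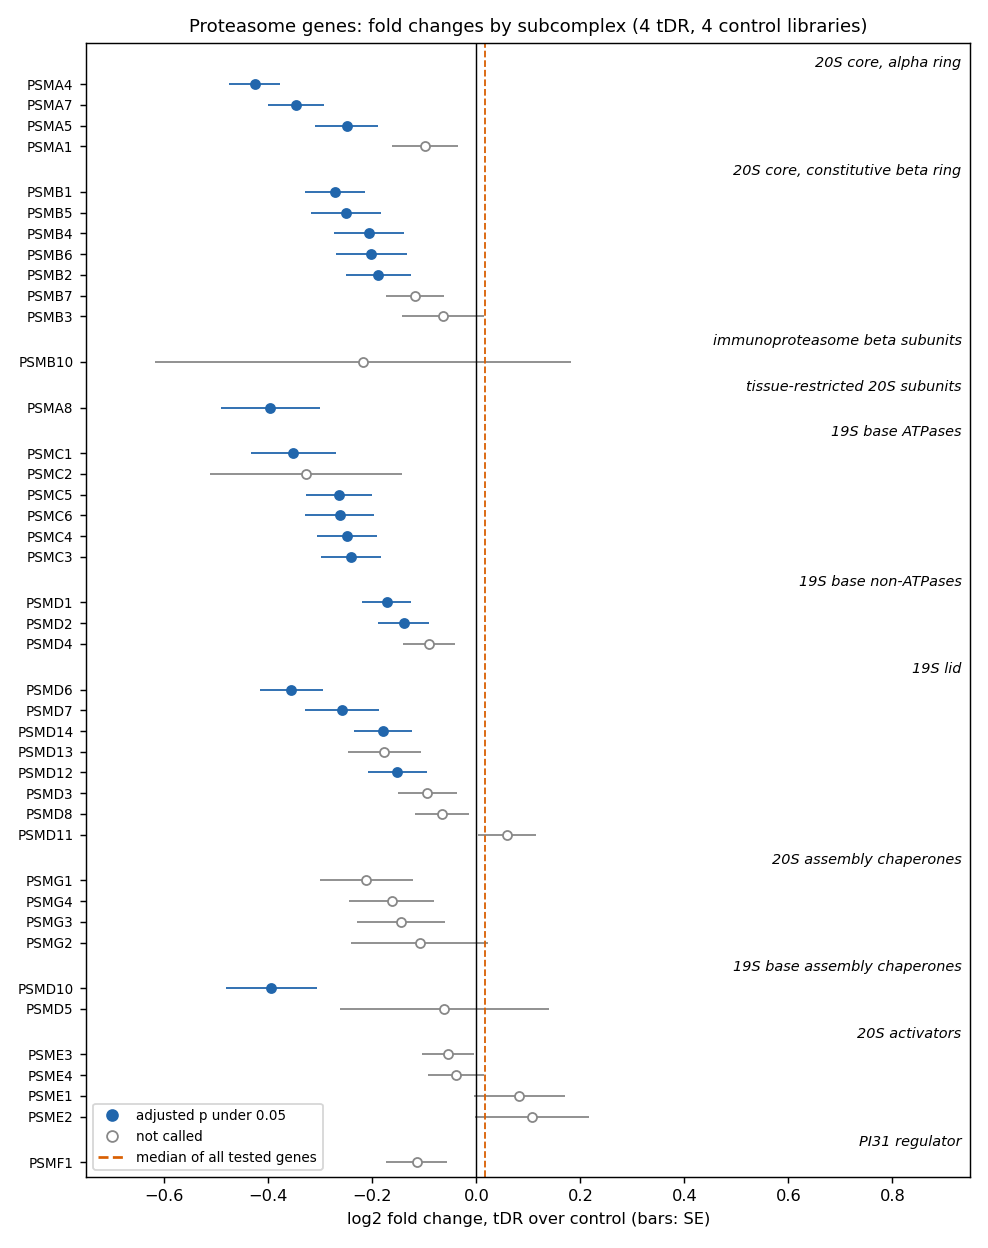
Log2 fold change of tDR over control (x axis) for the 41 tested proteasome genes, grouped by subcomplex, with bars for the SE. Filled points passed at adjusted p under 0.05, open points did not, and the dashed line is the median of all 17184 tested genes at 0.02. The filled points lie between -0.43 and -0.14, and none stands on the higher side.

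Scaling set how many members passed. With library size alone in place of TMM the members' median was -0.10, 12 were lower and PSMD11 was higher (log2 fold change 0.14), while the median of all genes was 0.10 and the calls over all genes were 3295 higher and 907 lower, against 2206 higher and 1962 lower with TMM. With estimated background subtracted 13 members were lower, with a median of -0.13. The members' median minus that of all genes was -0.20 with TMM, with DESeq2's size factors and with library size alone, and -0.14 after background subtraction. The 12 members whose call held under all 15 alternatives were PSMA4, PSMA5, PSMA7, PSMA8, PSMB1, PSMC1, PSMC3, PSMC4, PSMC5, PSMC6, PSMD6 and PSMD10.

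Not every subunit could be read from the table. The alpha subunit genes PSMA2 and PSMA3 were listed at 0 in all 8 libraries, PSMA6 had 1 count in 1 control library, and the base chaperone gene PSMD9 had 0, 0, 0 and 1 counts in tDR libraries and 0, 0, 0 and 2 in control libraries. PSMA2, PSMA3 and PSMA6 encode parts of the alpha ring of every proteasome, so these rows set no limit on the level of the mRNA. GENCODE release 29 is not known to be the annotation the authors used. In it the exons of PSMA2, PSMA6 and PSMD9 share 14.6%, 14.1% and 19.9% of their bases with other genes on the same strand. Those of PSMA3 share none. Rows of overlapping genes on the same strand held few reads, 72 counts over the 8 libraries for the gene that overlaps PSMA2 and 56 for the gene that overlaps PSMA6. The sources used here do not give the treatment of reads in shared exons or with several matches, and its part in these zeros was not tested. The ATPase gene PSMC2, at 7.63 ± 1.01 CPM in tDR libraries and 9.47 ± 1.81 CPM in control libraries (SD, n = 4 each, also below), and PSMD5, at 6.51 ± 0.495 CPM in tDR libraries and 6.83 ± 0.809 CPM in control libraries, were also far below their partners in the complex, and neither shares exon bases with another gene in that annotation.

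Per kilobase of merged exon, the readable members spanned a wide range. PSMA7 was highest, with 100.3 ± 3.53 CPM per kb in tDR libraries and 127 ± 10.9 in control libraries, followed by PSMD4 with 78.2 ± 4.44 CPM per kb in tDR libraries and 83.2 ± 4.47 in control libraries and PSMB7 with 70.2 ± 2.72 CPM per kb in tDR libraries and 76.2 ± 2.60 in control libraries. The control libraries of PSMD4 and PSMB7 overlapped on this scale and the tDR libraries did not. In the constitutive beta ring, whose subunits are present in equal numbers in the particle, PSMB7 was highest and PSMB2 lowest, with 18.1 ± 0.831 CPM per kb in tDR libraries and 20.5 ± 0.793 in control libraries. The median over the tested members was 26.7 CPM per kb in control libraries. That value was 38.0 with the length of the longest transcript, and PSMA4 then stood at 62.3 CPM per kb in control libraries, against 39.3 with merged exons, so the order of levels depends on the gene model.

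**Figure D2:**
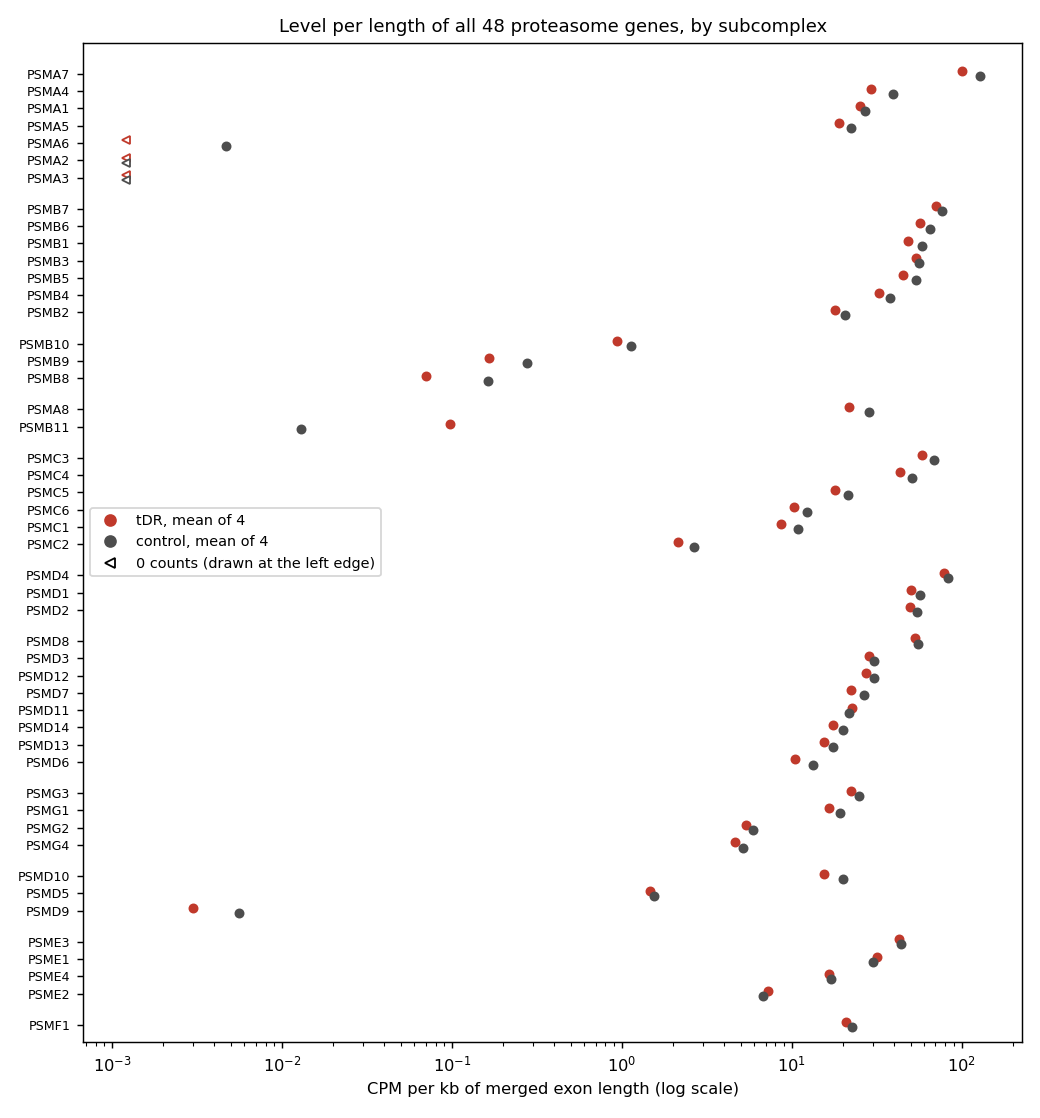
Mean level of each of the 48 proteasome genes in CPM per kb of merged exon length (log x axis), tDR above control in each row, with 4 libraries per group. Open triangles mark genes with 0 counts in a group, drawn at the left edge. PSMA2, PSMA3, PSMA6 and PSMD9 stand at or near 0, PSMB8, PSMB9 and PSMB11 below 0.3, and PSMA7 is highest at 100.3 in tDR and 127 in control libraries.

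Of the 4 readable alpha ring genes, which form the gate of the core, 3 fell. PSMA4 (alpha3; chromosome 15, 78540405 to 78552419, GRCh38) had 212, 214, 197 and 196 CPM in tDR libraries, against 280.1, 281, 265 and 274 CPM in control libraries. The groups did not overlap, and the log2 fold change -0.43 ± 0.0492 (SE, adjusted p = 1.56e-09) was the smallest p of any member. PSMA7 (alpha4; chromosome 20, 62136735 to 62143440) had 175, 179.7, 180.1 and 167 CPM in tDR libraries, against 196, 240.0, 229 and 227 CPM in control libraries. Control replicate 1 was the lowest control library and still lay above every tDR library (log2 fold change -0.35 ± 0.0541 SE, adjusted p = 2.03e-06). PSMA5 (alpha5) had 117.2, 106, 103 and 106 CPM in tDR libraries, against 140.2, 130.4, 124 and 117.4 CPM in control libraries (log2 fold change -0.25 ± 0.0604 SE, adjusted p = 0.00152). Its groups did not overlap, but tDR replicate 1 and control replicate 4 nearly met. PSMA1 (alpha6) averaged 82.8 ± 1.68 CPM in tDR libraries and 88.6 ± 4.38 CPM in control libraries and did not pass (log2 fold change -0.10 ± 0.0635 SE, adjusted p = 0.26). Its exons share 24.7% of their bases with another gene on the same strand.

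In the constitutive beta ring, which holds the protease sites, 5 of 7 genes fell, among them those of the chymotrypsin-like and caspase-like sites. PSMB1 (beta6, not proteolytic; chromosome 6, 170535117 to 170553341) had 108, 115, 102 and 111 CPM in tDR libraries, against 127, 136, 136 and 128 CPM in control libraries, with no overlap between groups (log2 fold change -0.27 ± 0.0577 SE, adjusted p = 3.22e-04). PSMB5, the chymotrypsin-like subunit and main target of proteasome inhibitor drugs, had 87.5, 71.6, 76.7 and 83.6 CPM in tDR libraries, against 85.2, 98.0, 98.8 and 98.2 CPM in control libraries. Its groups overlapped, since control replicate 1 lay below tDR replicate 1 (log2 fold change -0.25 ± 0.0671 SE, adjusted p = 0.00406). PSMB4 (beta7) had 73.0, 64.6, 69.3 and 75.9 CPM in tDR libraries, against 79.4, 82.1, 83.8 and 81.9 CPM in control libraries, with no overlap (log2 fold change -0.21 ± 0.0673 SE, adjusted p = 0.0186). PSMB6, the caspase-like subunit, had 84.99, 81.8, 78.7 and 84.0 CPM in tDR libraries, against 80.4, 106, 91.2 and 100.5 CPM in control libraries, with control replicate 1 inside the tDR range (log2 fold change -0.20 ± 0.0684 SE, adjusted p = 0.0243). PSMB7, the trypsin-like subunit, had 129, 119, 129.9 and 124 CPM in tDR libraries, against 138, 132, 142 and 133 CPM in control libraries. Every tDR library was below every control library, but the change did not pass (log2 fold change -0.12 ± 0.0558 SE, adjusted p = 0.118), although it did by DESeq2 (-0.15) and with length and GC correction (-0.20). PSMB2 (beta4) fell as well, by 0.19 on the log2 scale, and PSMB3 (beta3) had a log2 fold change of -0.06.

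The 3 calls of the alpha ring and that of PSMB1 held under all 15 alternatives, and the other beta ring calls did not. With library size alone or with background subtracted only PSMB1 of the ring was lower. Without tDR replicate 2 the calls of PSMB4 (-0.17) and PSMB6 (-0.20) were lost, without tDR replicate 3 those of PSMB2 (-0.19) and PSMB6 (-0.19), without control replicate 4 those of PSMB2 (-0.18) and PSMB6 (-0.18), without tDR replicate 4 that of PSMB2 (-0.16) and without control replicate 2 that of PSMB6 (-0.15).

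Subunits that replace the constitutive ones in immune cells were near the floor in both groups. These are PSMB8, PSMB9 and PSMB10, which exchange for PSMB5, PSMB6 and PSMB7 in the immunoproteasome. PSMB8 had 0, 2, 2 and 3 counts in tDR libraries and 3, 4, 4 and 5 counts in control libraries, and PSMB9 had 4, 1, 3 and 8 counts in tDR libraries and 1, 7, 8 and 12 counts in control libraries. Neither had enough counts to be tested, and the estimated background made up 22.1% and 44.8% of their counts. Their neighbours on chromosome 6, TAP1, TAP2 and PSMB8-AS1, were listed at 0 in all libraries. Whether the counting of reads lowered the rows of PSMB8 and PSMB9 was not tested. PSMB10 had 1.86, 1.92, 1.68 and 1.47 CPM in tDR libraries, against 0.876, 2.45, 3.66 and 1.38 CPM in control libraries. Its control libraries spanned the tDR values on both sides, and it did not pass (log2 fold change -0.22 ± 0.400 SE, adjusted p = 0.735). Of its exon bases 34.8% are shared with another gene on the same strand.

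Among tissue-restricted subunits, PSMB11, the thymus form of beta5, had 1, 0, 5 and 0 counts in tDR libraries and 1, 0, 0 and 0 in control libraries and was not tested. PSMA8, the form of alpha4 known from testis, was counted in every library, with 21.6 ± 1.196 CPM per kb in tDR libraries and 28.6 ± 5.91 in control libraries, beside 25.1 ± 0.509 CPM per kb in tDR libraries and 26.8 ± 1.33 in control libraries for PSMA1. Its paralog PSMA7, given above, was several times higher. With the length of the longest transcript PSMA8 had 21.8 CPM per kb in tDR libraries and 28.9 in control libraries, below PSMA1 with 54.2 in tDR libraries and 58.0 in control libraries. PSMA8 (chromosome 18, 26133852 to 26193355) had 40.5, 41.2, 38.2 and 43.7 CPM in tDR libraries, against 40.7, 68.0, 55.1 and 52.6 CPM in control libraries. Control replicate 1 lay inside the tDR range and control replicate 2 far above it (log2 fold change -0.40 ± 0.0952 SE, adjusted p = 0.00135). PSMA8 is a paralog of PSMA7, and the sources used here do not give the treatment of reads that match more than 1 gene, so the level of PSMA8 is uncertain. Its estimated background was 2.48% of its counts.

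**Figure D3:**
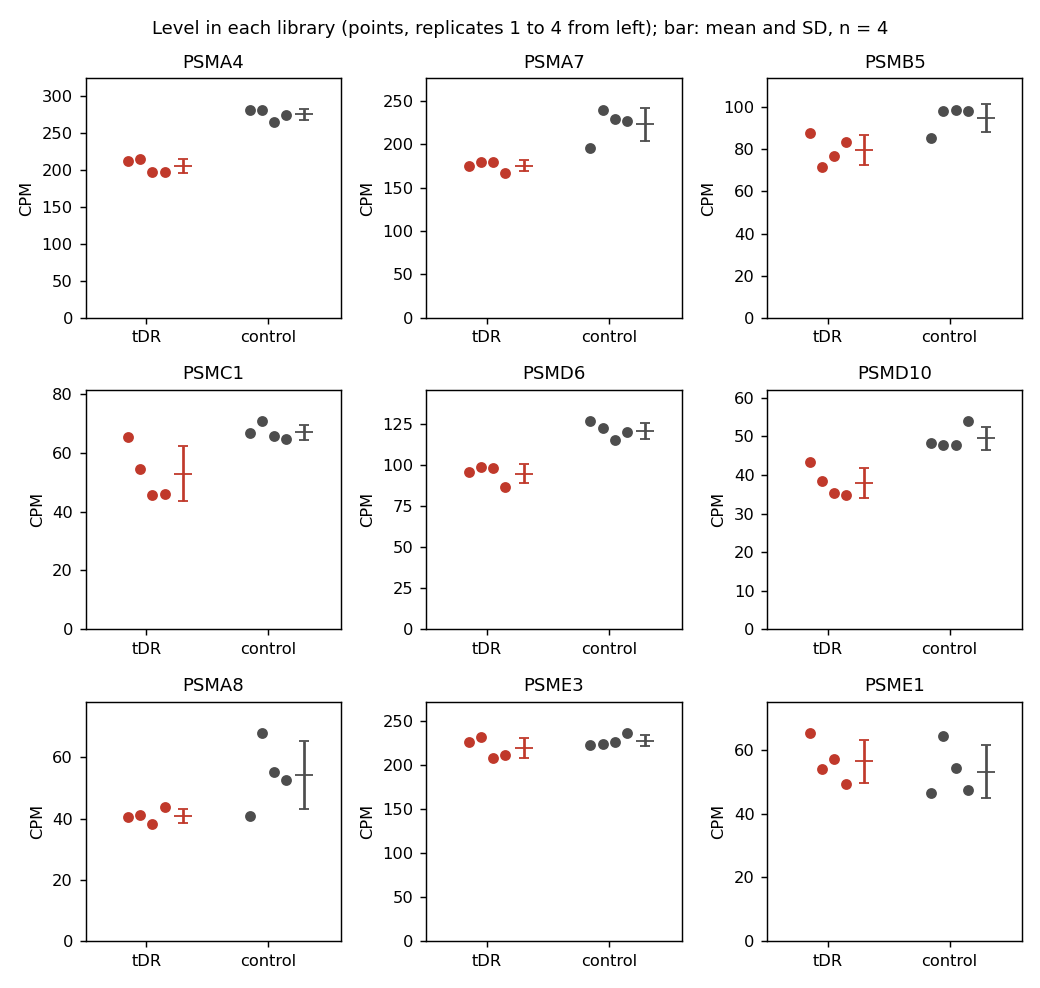
CPM (y axis, from 0) in each library for 9 proteasome genes, tDR left of control, with replicates 1 to 4 from left to right and the mean and SD of 4 beside them. PSMA4, PSMA7, PSMD6 and PSMD10 show no overlap between groups, PSMB5, PSMC1 and PSMA8 overlap in 1 or more libraries, and so do PSME3 and PSME1, which did not pass.

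Of the ATPases of the 19S base, which form the unfolding ring, 5 of 6 genes fell, with log2 fold changes from -0.35 to -0.24. PSMC4 (Rpt3; chromosome 19, 39971005 to 39981441) had 107, 103, 99.7 and 102 CPM in tDR libraries, against 119, 121, 120.1 and 127 CPM in control libraries, with no overlap (log2 fold change -0.25 ± 0.0579 SE, adjusted p = 0.00101). PSMC1 (Rpt2) had 65.4, 54.5, 45.7 and 46.1 CPM in tDR libraries, against 66.6, 70.7, 65.6 and 64.8 CPM in control libraries. Its tDR replicate 1 lay within the control range and the other tDR libraries below it (log2 fold change -0.35 ± 0.0821 SE, adjusted p = 0.00103). Of its exon bases 75.8% are shared with NRDE2 on the opposite strand, and the sources used here do not give the strand setting of the counting, so reads of these genes may not have been told apart. PSMC5 (Rpt6) had 80.8, 80.3, 84.1 and 76.5 CPM in tDR libraries, against 97.1, 101, 91.9 and 95.7 CPM in control libraries, with no overlap (log2 fold change -0.26 ± 0.0629 SE, adjusted p = 0.00126). The same limit applies to it, since 19.5% of its exon bases are shared with FTSJ3 on the opposite strand. FTSJ3 had 12314 counts over the 8 libraries and PSMC5 5706. PSMC3 (Rpt5) and PSMC6 (Rpt4) fell by 0.24 and 0.26 on the log2 scale. The sixth, the poorly counted PSMC2 (Rpt1), had a log2 fold change of -0.33 ± 0.185 (SE, adjusted p = 0.196). All 5 calls held under all 15 alternatives.

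Of the 3 base subunits that are not ATPases, which receive ubiquitin and its carriers, PSMD1 and PSMD2 fell. PSMD1 (Rpn2; chromosome 2, 231056864 to 231172827) had 261, 257, 263 and 258 CPM in tDR libraries, against 285, 301, 289 and 295 CPM in control libraries, tightly grouped and with no overlap (log2 fold change -0.17 ± 0.0467 SE, adjusted p = 0.0045). PSMD2 (Rpn1) had 283, 259, 273 and 263 CPM in tDR libraries, against 295, 317, 275 and 299 CPM in control libraries, with tDR replicate 1 above the lowest control library (log2 fold change -0.14 ± 0.0489 SE, adjusted p = 0.0296). The ubiquitin receptor PSMD4 (Rpn10) had 252, 243, 223 and 229 CPM in tDR libraries, against 235, 267, 248 and 257 CPM in control libraries and did not pass (log2 fold change -0.09 ± 0.0506 SE, adjusted p = 0.19). With library size alone neither PSMD1 (-0.09) nor PSMD2 (-0.06) passed, nor did they after background subtraction (-0.12 and -0.08). The call of PSMD2 was also lost without tDR replicate 2 (-0.13), tDR replicate 4 (-0.13) or control replicate 2 (-0.12), while PSMD4 passed without control replicate 1 (-0.13) and with length and GC correction (-0.14).

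In the lid, which recognises and deubiquitinates the substrate, 4 of 8 genes fell. PSMD6 (Rpn7; chromosome 3, 64010549 to 64024010) had 95.8, 98.9, 98.6 and 86.9 CPM in tDR libraries, against 127, 123, 115 and 120.1 CPM in control libraries, with no overlap (log2 fold change -0.36 ± 0.0602 SE, adjusted p = 9.54e-06). PSMD7 (Rpn8), the partner of the deubiquitinase, had 60.9, 65.7, 54.4 and 63.6 CPM in tDR libraries, against 76.0, 72.4, 72.6 and 71.9 CPM in control libraries, with no overlap (log2 fold change -0.26 ± 0.0714 SE, adjusted p = 0.00539). Of its exon bases 30.7% are shared with a noncoding gene on the opposite strand. PSMD14 (Rpn11), the deubiquitinase that strips ubiquitin from the substrate, had 136, 139, 135 and 131 CPM in tDR libraries, against 163, 151, 156 and 143 CPM in control libraries, with no overlap (log2 fold change -0.18 ± 0.0549 SE, adjusted p = 0.0123). PSMD12 (Rpn5) fell by 0.15 on the log2 scale (adjusted p = 0.0417). PSMD13, PSMD3, PSMD8 and PSMD11 did not pass, with log2 fold changes of -0.18, -0.09, -0.07 and 0.06.

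With library size alone PSMD6 was lower and the other lid calls were lost, and after background subtraction PSMD6 and PSMD7 were lower. PSMD12 and PSMD14 also rested on the processing: with length and GC correction they stood at -0.08 and -0.11 and did not pass, nor did they without tDR replicate 4 (-0.13 and -0.16). PSMD12 was also lost with the replicate block (-0.15) and without tDR replicate 3 (-0.14) or control replicate 1 (-0.10), and without control replicate 1 PSMD3 (-0.15) and PSMD13 (-0.23) passed. PSMD13 also passed by DESeq2 (-0.21), with its size factors (-0.19), with no filter (-0.21), with length and GC correction (-0.19) and without control replicate 3 (-0.21).

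Of the dedicated chaperones of assembly, the base chaperone PSMD10 fell. PSMD10, also called gankyrin, binds an ATPase of the base during assembly (chromosome X, 108084207 to 108091618). It had 43.3, 38.5, 35.2 and 34.7 CPM in tDR libraries, against 48.3, 47.8, 47.8 and 53.9 CPM in control libraries, with no overlap (log2 fold change -0.39 ± 0.0872 SE, adjusted p = 5.35e-04). The base chaperone PSMD5 had 6.43, 6.16, 6.22 and 7.23 CPM in tDR libraries, against 7.66, 5.87, 7.31 and 6.48 CPM in control libraries and did not pass (log2 fold change -0.06 ± 0.202 SE, adjusted p = 0.86). The PAC chaperones, which build the alpha ring in pairs, all had negative fold changes and none passed (edgeR; 1 of 4 with an unadjusted p under 0.05, and 0 by DESeq2). PSMG1 (PAC1) had 45.4, 44.1, 40.4 and 37.3 CPM in tDR libraries, against 41.1, 45.4, 53.6 and 53.1 CPM in control libraries, with overlapping groups (log2 fold change -0.21 ± 0.0895 SE, adjusted p = 0.0752). PSMG4 (PAC4) had 42.5, 48.2, 50.7 and 51.0 CPM in tDR libraries, against 49.7, 58.2, 50.2 and 57.6 CPM in control libraries (log2 fold change -0.16 ± 0.0817 SE, adjusted p = 0.143), and PSMG3 (PAC3) had 38.1, 46.0, 42.9 and 47.3 CPM in tDR libraries, against 45.1, 47.6, 50.1 and 51.0 CPM in control libraries (log2 fold change -0.14 ± 0.0844 SE, adjusted p = 0.213). PSMG2 (PAC2) averaged 17.97 ± 3.91 CPM in tDR libraries and 19.7 ± 1.6 CPM in control libraries. PSMG1 passed without control replicate 1 (-0.29), control replicate 2 (-0.25) or tDR replicate 1 (-0.26), and with no filter (-0.24) or length and GC correction (-0.23).

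The activators that open the core without ubiquitin did not pass, and their fold changes lay on both sides of 0. PSME3 (PA28 gamma, nuclear; chromosome 17, 42824385 to 42843758) had 226, 232, 208 and 211 CPM in tDR libraries, against 223, 224, 226 and 237 CPM in control libraries, with overlapping groups (log2 fold change -0.05 ± 0.05004 SE, adjusted p = 0.462). PSME2 (PA28 beta) had 23.0, 24.8, 28.4 and 26.9 CPM in tDR libraries, against 25.4, 24.6, 25.7 and 20.8 CPM in control libraries (log2 fold change 0.11 ± 0.109 SE, adjusted p = 0.509), and PSME1 (PA28 alpha), its partner in the interferon-inducible ring, had 65.5, 54.1, 57.3 and 49.4 CPM in tDR libraries, against 46.6, 64.6, 54.4 and 47.5 CPM in control libraries (log2 fold change 0.08 ± 0.0875 SE, adjusted p = 0.528). PSME4 (PA200), known for histone degradation, averaged 168 ± 4.78 CPM in tDR libraries and 173 ± 11.0 CPM in control libraries (log2 fold change -0.04). None of the 4 had an unadjusted p under 0.05 in edgeR, and DESeq2 called none. PSMF1, which encodes the core-binding regulator PI31, had 119, 105, 109 and 109 CPM in tDR libraries, against 116, 119, 118 and 125 CPM in control libraries and did not pass (log2 fold change -0.11 ± 0.0584 SE, adjusted p = 0.148), although it did with length and GC correction (-0.15).

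Summed over its members, the alpha ring averaged 571 ± 16.8 CPM in tDR libraries and 715 ± 13.6 CPM in control libraries, a level 20.1% lower. The ATPases summed to 453 ± 25.0 CPM in tDR libraries and 542 ± 12.7 CPM in control libraries, 16.6% lower, and the constitutive beta ring to 618 ± 13.8 CPM in tDR libraries and 705 ± 29.6 CPM in control libraries, 12.3% lower. In each of these, and in the other base subunits (8.90% lower) and the lid (8.57% lower), no tDR library reached the lowest control library. The activators summed to 470.0 ± 13.7 CPM in tDR libraries and 478 ± 5.50 CPM in control libraries, with overlapping groups. The chaperones of the 20S core summed to 151 ± 8.89 CPM in tDR libraries and 170 ± 11.6 CPM in control libraries. That was 11.1% lower, also with overlapping groups. Over all 48 members the sums were 4328, 4254, 4153 and 4101 CPM in tDR libraries, against 4632, 4869, 4733 and 4797 CPM in control libraries. As a share of all counts, with no scaling factor, they held 0.430% ± 0.00661 in tDR libraries and 0.460% ± 0.00901 in control libraries. On that unscaled share the base subunits other than ATPases and the lid overlapped between groups. These sums are descriptions without a test, and the unreadable subunits add nothing to them.

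**Figure D4:**
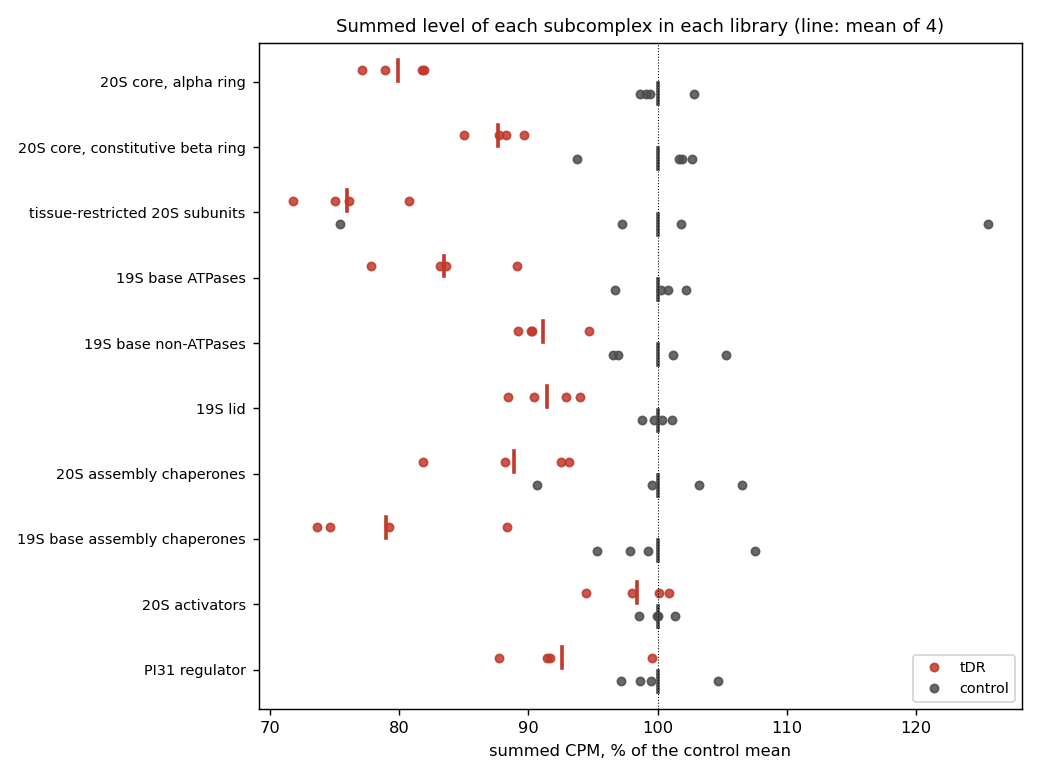
Summed CPM of each subcomplex in each library, as a percentage of the mean of the 4 control libraries (x axis), tDR above control, with a line at each group's mean. The alpha ring sums of the tDR libraries average 20.1% under the control mean and the activator sums 1.62% under it. The immunoproteasome subunits, near the floor, are left out.

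Promoter sequences from RefSeq (GRCh38.p14, 250 bases before to 50 after each listed start) were matched for 42 of the 48 members, all but PSMA7, PSMB1, PSMB6, PSMB7, PSMD4 and PSMG3. The searched motifs included the antioxidant response element TGACNNNGC, the kind of site that NRF1 and NRF2 bind, and the NF-Y box CCAAT, each on both strands. The antioxidant element was found in 15 of the 42 members (35.7%) and in 16.1% of all 27305 genes with a promoter. A gene was counted if any of its listed starts held the motif, so genes with more starts had more chances. Numbers of starts were not compared, and whether the shares differ was not tested. Among members that fell it was in 5 of 18, and among members that were tested and not called in 8 of 17. CCAAT was in 20 of 42 members (47.6%) and in 39.7% of all genes, in 10 of 18 that fell and 6 of 17 that were not called. The E-box CACGTG was in 3 members and 8.78% of all genes, the heat shock element pair GAANNTTC in 0 and 8.21%, and the TATA box TATAAA in 5 and 14.0%. A match describes the letters of the window and does not show that a factor binds there.

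The promoters of PSMA4, PSMD12 and PSME2 are printed as the 250 bases before the first start, 5′ to 3′ on the strand of the gene. Antioxidant elements are in capitals. PSMA4 was picked for its p, and PSMD12 and PSME2 from members with such an element in these bases. PSMA4 (chr15:78540155-78540404, plus strand) had the smallest p of the members that fell and no match in these bases. The window of another of its listed starts (chr15:78540536-78540835) holds an antioxidant element that begins at -126 and CCAAT at -199 from that start, and PSMA4 is therefore among the 5 of 18 above. PSMD12 (chr17:67366578-67366827, minus strand) fell and has an element 165 bases before the start. PSME2 (chr14:24146611-24146860, minus strand) did not pass and has an element 175 bases before the start. None of the printed stretches holds CCAAT on either strand.
PSMA4: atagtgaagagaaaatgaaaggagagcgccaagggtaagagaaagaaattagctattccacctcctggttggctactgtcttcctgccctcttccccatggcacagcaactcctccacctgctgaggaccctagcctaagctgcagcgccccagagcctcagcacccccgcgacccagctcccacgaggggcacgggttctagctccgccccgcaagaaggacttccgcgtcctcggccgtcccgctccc
PSMD12: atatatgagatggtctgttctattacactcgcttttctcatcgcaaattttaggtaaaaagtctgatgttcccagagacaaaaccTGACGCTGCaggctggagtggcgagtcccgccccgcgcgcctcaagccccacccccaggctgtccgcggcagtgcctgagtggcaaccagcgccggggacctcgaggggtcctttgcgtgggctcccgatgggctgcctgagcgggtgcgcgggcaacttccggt
PSME2: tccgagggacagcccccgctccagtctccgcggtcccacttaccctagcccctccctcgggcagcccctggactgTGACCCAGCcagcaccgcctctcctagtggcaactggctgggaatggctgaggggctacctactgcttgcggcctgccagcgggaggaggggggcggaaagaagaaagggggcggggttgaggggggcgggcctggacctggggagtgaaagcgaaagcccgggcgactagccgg

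Outside the symbol rule, of a list of 13 genes 4 fell, 0 rose and 9 did not pass, with a median log2 fold change of -0.14. The list holds accessory subunits and cofactors of the proteasome and also PSMC3IP, which is not a proteasome component. No member of this list rose by DESeq2 either. Of all genes tested 11.4% were lower, and of the protein-coding genes of at least 20 CPM 22.1%. POMP, which guides the beta ring onto the alpha ring, averaged 57.5 ± 2.58 CPM in tDR libraries and 70.3 ± 8.603 CPM in control libraries (log2 fold change -0.28 ± 0.0766 SE, adjusted p = 0.00467). SEM1, a small lid subunit, averaged 72.8 ± 4.33 CPM in tDR libraries and 87.6 ± 7.93 CPM in control libraries (log2 fold change -0.27 ± 0.0688 SE, adjusted p = 0.00222). UCHL5, a deubiquitinase of the base, averaged 145 ± 5.79 CPM in tDR libraries and 167 ± 9.02 CPM in control libraries (log2 fold change -0.20 ± 0.0542 SE, adjusted p = 0.00455), and with length and GC correction it did not pass (-0.13). The fourth, ECPAS, a scaffold of the 26S particle, had a log2 fold change of -0.15, and without tDR replicate 2 it did not pass (-0.15).

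Genes that make ubiquitin and carry substrates moved in both directions. Of 6 ubiquitin genes and ubiquitin-activating enzymes 2 fell, RPS27A, which encodes a fusion of ubiquitin and a ribosomal protein (log2 fold change -0.24), and UBB (log2 fold change -0.15, adjusted p = 0.0315), and the median was -0.07 (0.013 with library size alone, -0.02 with background subtracted and -0.18 without control replicate 1). UBB did not pass without tDR replicate 3 (-0.13), tDR replicate 4 (-0.14), control replicate 2 (-0.11) or control replicate 4 (-0.13). Among the ubiquitin receptors and shuttle factors RAD23B, which brings tagged proteins to the proteasome, fell, and the autophagy receptor SQSTM1 and the shuttle factor UBQLN4 rose. The median of that list was -0.03 (0.053 with library size alone and 0.021 with background subtracted). Beside both lists, 22.1% of the protein-coding genes of at least 20 CPM were lower and 7.18% higher. SQSTM1 averaged 146 ± 6.33 CPM in tDR libraries and 115 ± 4.11 CPM in control libraries (log2 fold change 0.35 ± 0.0562 SE, adjusted p = 4.00e-06).

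Of 9 genes of the p97 segregase, which extracts tagged proteins from membranes and complexes, VCP, the p97 gene itself, and its cofactor UFD1 fell (log2 fold changes -0.17 and -0.18), and the cofactor NPLOC4 rose (0.17), with a median of -0.10. Of the protein-coding genes of at least 20 CPM 22.1% were lower and 7.18% higher. UFD1 did not pass without tDR replicate 2 (-0.17), tDR replicate 4 (-0.15) or control replicate 1 (-0.16). NPLOC4 did not pass by DESeq2 (0.14) or with no filter (0.14), nor without tDR replicate 1 (0.15), tDR replicate 3 (0.16), tDR replicate 4 (0.15), control replicate 1 (0.15) or control replicate 2 (0.12).

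NFE2L1, the gene of the factor NRF1, had 128, 128, 123 and 124 CPM in tDR libraries, against 119, 124, 114 and 124 CPM in control libraries, with overlapping groups (log2 fold change 0.06 ± 0.0563 SE, adjusted p = 0.447). Among the 9 genes of its list, whose median was -0.05 (0.030 with library size alone and 0.058 with background subtracted), NGLY1, which encodes the deglycosylase that NRF1 needs, fell (-0.27, adjusted p = 0.00778), and MAFK, a dimerisation partner, rose (0.46, adjusted p = 0.0145). NGLY1 did not pass without control replicate 1 (-0.20) or with length and GC correction (-0.17). SYVN1 (0.29, adjusted p = 0.036), a ubiquitin ligase of the endoplasmic reticulum that acts on NRF1, rose and NFE2L2 (-0.17, adjusted p = 0.0476), the NRF2 gene, fell. Thus 2 of the 9 fell and 2 rose, where 11.4% of all genes tested were lower and 12.8% higher. SYVN1 did not pass under 8 of 15 alternatives, namely by DESeq2, with no filter and without tDR replicates 1, 2 or 3 or control replicates 1, 2 or 4, with values between 0.23 and 0.29. NFE2L2 did not pass under 9 of 15, among them the replicate block (-0.17) and the absence of tDR replicate 1, 2 or 4 or control replicate 1, 3 or 4, with values between -0.19 and -0.15. With library size alone UCHL5, ECPAS, UBB, RAD23B, VCP, UFD1, NGLY1 and NFE2L2 did not pass. After background subtraction UCHL5, ECPAS, UBB, VCP, UFD1, NGLY1 and NFE2L2 did not.

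Proteasome products feed antigen presentation, and of 11 genes for that pathway and its regulation 8 were tested, of which 2 rose and none fell, with a median of 0.12 (0.21 with library size alone and without tDR replicate 4; edgeR, 0 with a negative fold change at an unadjusted p under 0.05, and 0 lower by DESeq2). TAPBP, the tapasin gene of the peptide-loading complex, averaged 22.6 ± 2.61 CPM in tDR libraries and 15.4 ± 0.711 CPM in control libraries (log2 fold change 0.55 ± 0.124 SE, adjusted p = 7.29e-04), and HLA-C averaged 148 ± 3.67 CPM in tDR libraries and 123 ± 18.7 CPM in control libraries (log2 fold change 0.27 ± 0.0652 SE, adjusted p = 0.00147). Without control replicate 1, its lowest library, HLA-C stood at 0.17 and still passed. Of all genes tested 12.8% were higher, and of the protein-coding genes of at least 20 CPM 7.18%. IRF1, TAP1 and TAP2 were listed at 0 in all libraries. HLA genes resemble each other, so the value of a single one is uncertain. Transcripts named for a neighbouring member as antisense or divergent numbered 7, of which 4 were tested and PSMD7-DT was called higher. It had 15.2 CPM in tDR libraries and 10.1 CPM in control libraries (log2 fold change 0.60, adjusted p = 0.00529). Background was estimated at 56.0% of its counts. That estimate scales with its span of 353685 bases, of which 7473 are exon, and would be lower if introns were not counted.

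Across all genes the libraries split by group on the first principal component of log2 CPM, with 39.6% of the variance. All 9 genes characteristic of HEK293 had at least 1 CPM, and their sums were 709 to 759 CPM in tDR libraries and 792 to 850.0 CPM in control libraries. They moved in both directions. NEFL (-0.46), NEFM (-0.41) and CDH2 (-0.16) were called lower, PAX2 (0.44) and KRT8 (0.63) higher, and the others were not called. Summed markers of endothelial cells were 12.2 to 14.1 CPM in tDR libraries and 5.25 to 8.10 CPM in control libraries (0 of 3 markers under 1 CPM), those of fibroblasts 26.96 to 30.8 CPM in tDR libraries and 15.98 to 21.5 CPM in control libraries (3 of 4 under 1 CPM), and those of hepatocytes 3.01 to 5.18 CPM in tDR libraries and 1.28 to 2.45 CPM in control libraries (2 of 3 under 1 CPM). Immune markers summed to 3.22 to 5.66 CPM in tDR libraries and 3.17 to 5.14 CPM in control libraries, with 4 of 5 under 1 CPM, and of the 2 erythroid markers HBA1 had 0 counts. Counts over 381 olfactory receptor genes, which are silent in most tissues, gave a background of 0.137 to 0.231 counts per kb of gene span in tDR libraries and 0.0908 to 0.151 in control libraries. These densities are not scaled to depth. Olfactory counts were 339, 448, 489 and 573 in tDR libraries and 358, 374, 225 and 356 in control libraries. Relative to total counts the background was higher in every tDR library than in every control library. This background scales with gene span, introns included, and is estimated at no more than 8.16% of the counts of any tested member. Of the markers it makes up 68.4% of the counts of PECAM1, 62.7% of VWF and 53.5% of CDH5 (endothelial), 100% of COL1A2, DCN and PDGFRA and 1.73% of COL1A1 (fibroblast), and 34.1% of TTR (hepatocyte). The part of these differences in the proteasome result was not tested beyond the background-subtracted counts given above.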

How the data were processed

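Measured were 8 RNA libraries. The authors deposited a single table of unnormalized counts, whole numbers for each gene and library. The submitters' processing notes name the tools STAR 2.7.8a, featureCounts 2.0.2, DESeq2 1.30.1, cutadapt 2.10 and FastQC 0.11.9 and the builds hg38 and GRCh38.p13. Per the labels' protocols a stranded low-input kit was used on TRIzol RNA. The strand setting and the handling of shared reads are unknown here.

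Counts were tested with edgeR 4.0.16 (quasi-likelihood, TMM, filterByExpr, group as the only term, all 8 libraries) in R 4.3.3, which gave all adjusted p in the text. The SE is the absolute log2 fold change over the root of F. DESeq2 1.42.0 was an alternative. Positions, spans, exons and GC content came from GENCODE release 29 on GRCh38 (94.1% of rows, 99.6% of counts), with 1-based coordinates. The length and GC alternative removed a spline trend (5 degrees of freedom each) per library and recomputed TMM. Background was the count density over olfactory receptor genes times gene span. Whether reads in introns were counted is not known here. If they were not, the estimate is too high for genes with long introns. Low counts limit precision: the SE was 0.40 for PSMB10. All 28 pairs of libraries differed beyond counting noise (chi-square per degree of freedom 2.15 to 8.16).

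Members and gene lists were chosen with earlier results of these data known, and the set of protein-coding genes of at least 20 CPM after seeing the data. Values per library are given for the 3 members of each subcomplex with the smallest p, the catalytic subunits and their immune forms and NFE2L1, and up to 3 called genes of each list are named. ECPAS, UBQLN4 and NFE2L2 were named to complete a count, after their values were seen. A gene of a list is not reported here.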

Additional observations from a re-analysis of the deposited data

Results flagged for a closer look

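In 5 of 82 groups of 4 libraries (41 tested members in 2 groups) 1 library stood apart by Dixon's criterion, where chance flags about 1 in 20. PSMA5 was at 117 CPM in tDR replicate 1, with the other tDR libraries at 103 to 106 CPM. PSMD8 was at 155 CPM in tDR replicate 3, with the others at 167 to 169 CPM. PSMD13 was at 68.4 CPM in tDR replicate 1, with the others at 74.9 to 76.1 CPM. PSMB5 was at 85.2 CPM in control replicate 1, with the other control libraries at 98.0 to 98.8 CPM. PSMD10 was at 53.9 CPM in control replicate 4, with the others at 47.8 to 48.3 CPM.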

How the results depend on the processing

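Alternatives are named with their values, and no cause was tested. With library size alone 12 members were lower and 1 higher (median -0.10), 907 of all genes were lower (median 0.10), and the beta ring had 1 lower, the other base subunits 0, and the lid 1 lower and 1 higher. With background subtracted 13 members were lower (median -0.13), 1095 of all genes were lower and 1115 higher (median 0.0054), and the beta ring had 1 lower, the other base subunits 0 and the lid 2. By DESeq2 the members' median was -0.21 with 23 lower. Over all genes it was 0.11, with 2184 lower and 1441 higher, and 16119 of its 34642 genes had no adjusted p. With no filter the medians were -0.21 for members and 0.093 for all genes, and 1 of the 20S assembly chaperones was lower. The all-gene medians by DESeq2 and with no filter are over 34642 genes, against 17184 in the main test. With length and GC correction 24 members and 2170 of all genes were lower. The 24 included PI31 (1 of 1) and 1 of the 20S assembly chaperones. The median of all genes was 0.0095 with that correction and 0.0056 with DESeq2's size factors. List medians turned positive for ubiquitin genes with library size alone (0.013), for ubiquitin receptors with library size alone (0.053) and background subtracted (0.021), and for the NRF1 axis with the same settings (0.030 and 0.058). The median level per kb was 38.0 with transcript lengths. Leaving out 1 library gave 17 to 24 members lower (medians -0.21 to -0.17), 1511 to 2109 of all genes lower and 1640 to 2200.0 higher (medians 0.0098 to 0.017), 3 to 5 lower in the beta ring, 1 to 3 in the other base subunits, 2 to 5 in the lid and 0 to 1 of the 20S assembly chaperones. The immunoproteasome median, from PSMB10 alone, ran from -0.49 without control replicate 1 to 0.14 without control replicate 3. Same-numbered libraries deviated from their group means with correlations of -0.03 to 0.07 over 4 pairs. Of 4 tDR libraries 2 correlated best with their own number. So few libraries cannot decide whether the numbers pair the samples. The replicate block gave 20 members and 1834 of all genes lower. Leaving out members that share over 10% of exon bases with another gene, chosen after seeing the data, gave 17 of 33 lower (median -0.18).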
